A study of Mus musculus with 24 samples.

Results

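Glucose is taken up by facilitative transporters of the plasma membrane and broken down to pyruvate and lactate by the enzymes of glycolysis, and the RNA of 10 genes of this route was followed here in mouse embryonic stem cells (ESCs). The 10 genes were listed by symbol and are 2 transporters (Slc2a1, Slc2a3), 2 hexokinases (Hk1, Hk2), 5 enzymes of the steps between glucose 6-phosphate and pyruvate (Gpi1, Aldoa, Gapdh, Pgk1, Eno1) and lactate dehydrogenase A (Ldha), out of 22926 gene symbols in the count tables. All 10 were counted and passed the filter on low counts. Polyadenylated RNA was sequenced in 24 libraries, each from 1 clone, 12 from ESCs kept with leukemia inhibitory factor (LIF), a cytokine that maintains the undifferentiated state (D0), and 12 from cells grown without LIF for 6 days (D6).

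The 5 genotypes were WT, Tet1-/-, Tet2-/-, DKO (Tet1 and Tet2) and TKO (Tet1, Tet2 and Tet3), with 3 clones each for WT and Tet1-/- and 2 clones each for the other genotypes at each day. Tet1, Tet2 and Tet3 are the enzymes that oxidise 5-methylcytosine in DNA. All clones descend from 1 ESC line derived from 129/SVj mice in which eGFP sits at the Pou5f1 (Oct4) locus, so WT and knockouts share that allele, and the knockouts were made in it with CRISPR/Cas9. Clones are the replicates, so the spread within a genotype is spread between clones of 1 line, and the genotypes differ by clone as well as by edit. By the labels the same clones were used at both days, other than clone Tet1_KO_2.3 (D0 only) and clone Tet1_KO_2.2 (D6 only), with the D6 label "DKO_512" read as clone DKO_5.12, on which the pairing of the DKO clones rests. Whether RNA of both days was prepared together is not given in the sources used here, so day and preparation cannot be told apart.

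Depth was 21729346 to 37290208 counts at D0 and 18400463 to 34219640 counts at D6. At D0, Tet2 RNA was at 87.9 to 94 CPM (reads for every 1000000 reads counted, after TMM scaling) in WT and at 20.9 to 23.2 CPM in Tet2-/-, without overlap. At D6 it was at 12.3 to 16 CPM in WT and 15.9 to 16.6 CPM in Tet2-/-, so it was not lower there. At D0 Tet1 RNA was at 220 to 431 CPM in WT and 93.4 to 358 CPM in Tet1-/-, which overlap. In the TKO pair at D0, Tet1 RNA was at 41.7 and 568 CPM, and Tet3 was at 2.84 to 4.43 CPM against 5.05 to 7.94 CPM in WT. Small edits need not lower an RNA, and the count tables hold no sequence of the edited sites, so the edits themselves were not checked. The TKO pair at D0 also stood farther apart than any other pair within a group (variance 97.6 times that of read sampling, against 8.02 for the closest pair). The effect of leaving out either library is given beside the TKO results and the comparisons at D0 that rest on it. The sum of 13 pluripotency markers was 7556 to 8906 CPM at D0 and 1409 to 4077 CPM at D6. The sum of 16 differentiation markers was 75.1 to 136 CPM at D0 and 526 to 1764 CPM at D6. Since these were bulk libraries, fewer cells of a type and less RNA per cell cannot be told apart.

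As background, glucose enters most cells through GLUT1 (Slc2a1) and, in cells with a high demand such as neurons and early embryonic cells, through the high-affinity GLUT3 (Slc2a3). Hexokinases trap it as glucose 6-phosphate, the isomerase and aldolase prepare and split the 6-carbon sugar, and the later enzymes gain ATP and reach pyruvate, which Ldha reduces to lactate. ESCs are known for a strong use of glycolysis, and several of these genes are textbook targets of the hypoxia-inducible factors and of Myc.

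The levels of the 10 genes spanned a wide range in every library. To compare genes, CPM was divided by the length of the transcript in kilobases, and this length-corrected level is given as CPM per kb. At D0 the median over 12 libraries was 1046 CPM per kb for Aldoa, 941 for Ldha, 735 for Gapdh, 609 for Eno1, 362 for Slc2a3, 233 for Gpi1, 200 for Slc2a1, 111 for Pgk1, 31.6 for Hk2 and 31.4 for Hk1. At D6 the order was Aldoa (1295 CPM per kb), Ldha (1178), Slc2a3 (626), Gapdh (571), Eno1 (522), Slc2a1 (349), Gpi1 (251), Pgk1 (228), Hk2 (21.4) and Hk1 (14.9). Neighbours in both orders overlapped in their ranges over libraries, with the exception of Pgk1 and Hk2. Both hexokinases thus lay below the other 8 genes at both days, with at most 62.3 CPM per kb for Hk1 at D0 against at least 73.9 for Pgk1. Aldoa, Gapdh, Pgk1, Eno1 and Ldha have processed copies elsewhere in the genome, and how reads that match several places were counted is not given in the sources used here, so their levels are less certain than those of the transporters and hexokinases. Together the 10 genes took 0.624% to 1.24% of all counts at D0 and 0.913% to 1.44% at D6.

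**Figure D1:**
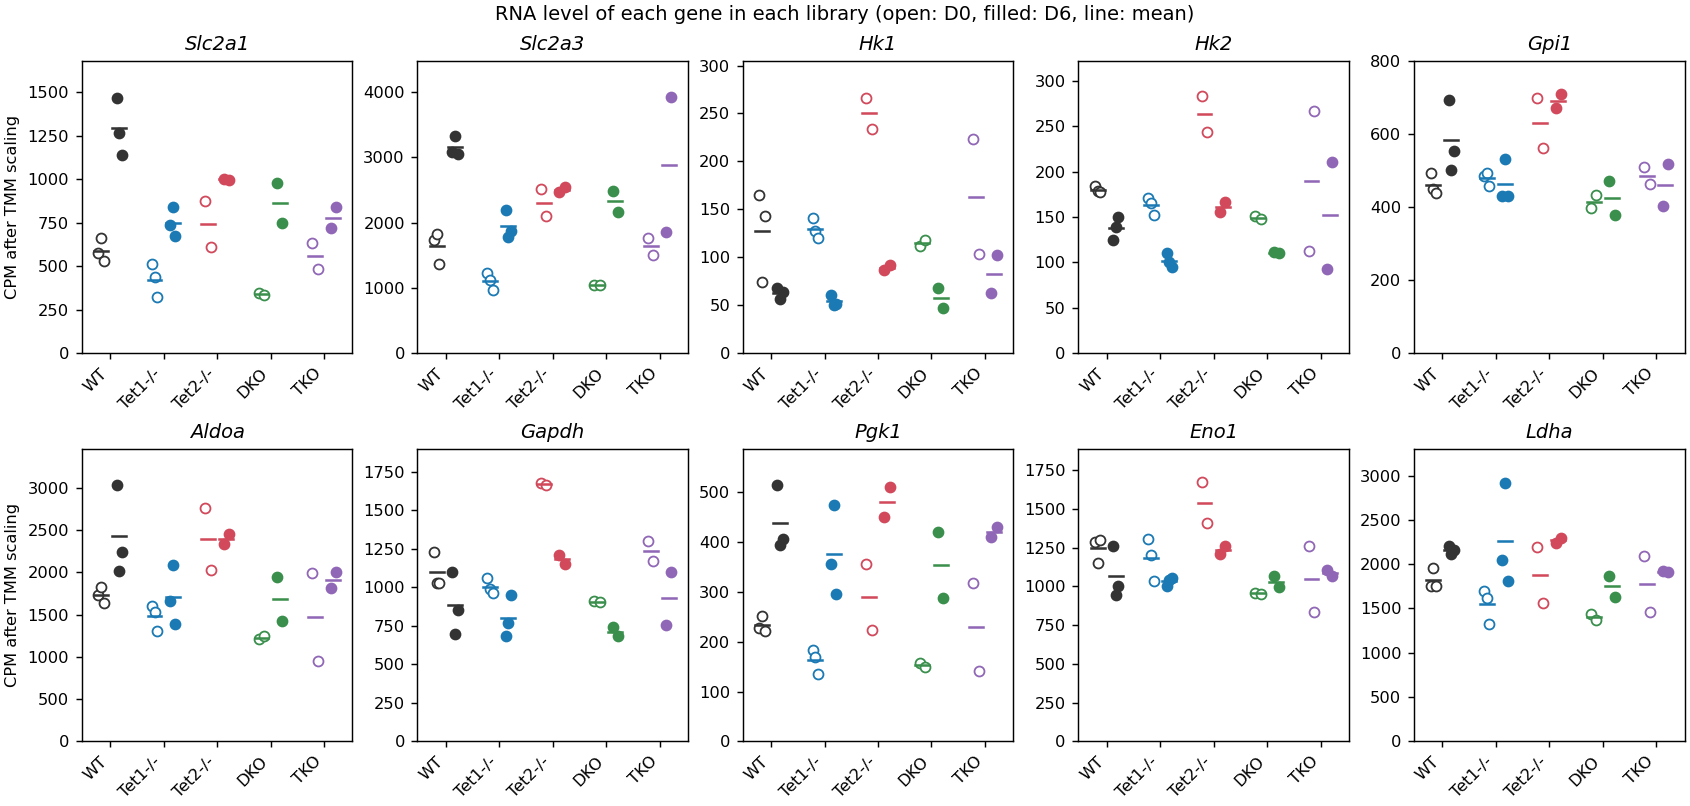
Level of each of the 10 genes in CPM after TMM scaling (vertical axis, from 0) in each of the 24 libraries, by genotype (horizontal axis), with open circles for D0, filled circles for D6 and short lines for the mean of the clones. Slc2a1, Slc2a3 and Pgk1 were higher and Hk1 lower at D6 in WT, and both Tet2-/- clones had more Hk1 and Gapdh than any WT clone at D0.

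The first question was what LIF withdrawal did to these genes in WT cells. At an adjusted p-value under 0.05 (edgeR quasi-likelihood test over 15639 genes), 4 of 10 genes rose (Slc2a1, Slc2a3, Pgk1 and Gpi1) and 1 fell (Hk1), where 33.5% of all tested genes rose and 32.8% fell. Both shares are near or above those of the 10 genes, so the count alone does not set them apart, and the median change of the 10 genes was 0.29 on the log2 scale against 0.01 for all genes tested. Both transporters rose, while of the enzymes that act first on glucose 1 fell and the other did not pass. Without overlap between the days, 6 of the 10 genes lay higher at D6 and 2 lower, where 35.8% and 34.9% of all genes did.

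Slc2a1 encodes GLUT1, the transporter of basal glucose uptake (mm9, chr4:118781316-118809935, + strand, 10 exons). In WT it was at 574, 665 and 531 CPM at D0 (clones O4.1, O4.2 and O4.13) and at 1269, 1470 and 1143 CPM at D6. Every WT library at D6 was above every one at D0, and within each clone the level was 2.15 to 2.21 times as high. The fitted change was 1.13 ± 0.17 (log2, standard error), adjusted p = 1.15e-05.

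Slc2a3 encodes GLUT3 (chr6:122677827-122692763, - strand, 10 exons). In WT it was at 1734, 1823 and 1359 CPM at D0 and at 3317, 3083 and 3045 CPM at D6 for the same clones. The days did not overlap, and the D6 level was 1.91, 1.69 and 2.24 times that of D0. The change was 0.94 ± 0.18, adjusted p = 0.000197. Per length, Slc2a3 stood above Slc2a1 in all 24 libraries, with a ratio of 1.58 to 2.27 at D0 (median 1.93) and 1.38 to 3.07 at D6 (median 1.71), so the rise of both left the order of the transporters as it was.

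Among the middle enzymes Pgk1, phosphoglycerate kinase, which makes the first ATP of the pathway, moved most (chrX:103382439-103399038, + strand, 11 exons). In WT it was at 228, 251 and 221 CPM at D0 and at 394, 514 and 407 CPM at D6. The groups did not overlap, the change was 0.91 ± 0.24 and the adjusted p was 0.00264. Gpi1, which converts glucose 6-phosphate to fructose 6-phosphate (chr7:34987141-35015300, - strand, 18 exons), was at 494, 449 and 439 CPM at D0 and at 503, 694 and 555 CPM at D6. The D6 clones lay just above those of D0, with clone O4.2 highest. This rise was 0.34 ± 0.13, adjusted p = 0.0252, and it did not pass without D0 clone O4.2 (adjusted p = 0.0676), D0 clone O4.13 (0.0801) or D6 clone O4.2 (0.178).

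Hk1, the hexokinase of most tissues that sits on the outer mitochondrial membrane (chr10:61731603-61803290, - strand, 18 exons), went the other way. In WT it was at 165, 74.8 and 143 CPM at D0 and at 56.8, 67.6 and 64.1 CPM at D6. The D6 values were all below those of D0, but clone O4.2, low at D0, dropped only to 0.904 times its level while the other clones dropped to 0.345 and 0.448 times. The change was -1.02 ± 0.26, adjusted p = 0.0021. Hk2, the inducible hexokinase of muscle, fat and many growing cells (chr6:82675019-82724448, - strand, 18 exons), was at 184, 179 and 178 CPM at D0 and at 139, 125 and 150 CPM at D6. The WT days did not overlap, yet the change of -0.39 ± 0.24 did not pass (adjusted p = 0.164), while with clone as a block it did (-0.39, adjusted p = 0.00171). Hk2 lay lower at D6 in all 11 clones sequenced at both days.

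For the remaining enzymes no WT change passed. Aldoa, the aldolase that splits fructose 1,6-bisphosphate (chr7:133938750-133942655, - strand, 10 exons), went from 1641 to 1830 CPM at D0 to 2011 to 3038 CPM at D6 (0.49 ± 0.21, adjusted p = 0.0509), without overlap. That value lay at the threshold, and 14 of 32 other settings passed it, the clone block among them (adjusted p = 0.0456). Gapdh, glyceraldehyde 3-phosphate dehydrogenase (chr6:125111872-125115791, - strand, 7 exons), was at 1031 to 1232 CPM at D0 and 697 to 1101 CPM at D6 (-0.31 ± 0.15, adjusted p = 0.0737), which overlap. Eno1, enolase (chr4:149611061-149622988, + strand, 12 exons), was at 1154 to 1300 CPM and 947 to 1259 CPM (-0.22 ± 0.13, adjusted p = 0.134). Ldha (chr7:54102501-54110996, + strand, 8 exons) was at 1758 to 1953 CPM and 2110 to 2200 CPM (0.24 ± 0.16, adjusted p = 0.183), and its days did not overlap. Without clone O4.2 at D6, the highest WT library of D6 for both, Gapdh (-0.50, adjusted p = 0.00602) and Eno1 (-0.36, 0.024) passed as lower. Gapdh, often used as a reference gene, differed by up to 1.77-fold among the 12 libraries of D6, and Eno1 by 1.33-fold, the narrowest range of the 10.

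The sequence before the start of the genes that rose and fell most was set side by side. Slc2a1 and Pgk1 are known targets of the hypoxia-inducible factors, and ACGTG is 1 form of their binding core. Other forms of the core were not searched. RefSeq promoter windows (GRCm38.p6, a later build than mm9) matched 9 of the 10 genes with 15 start sites, and Slc2a3 was not matched. The 250 bases before each start were searched for ACGTG on both strands (CACGT on the strand shown), a core that also lies inside the E-box CACGTG bound by Myc. It was found for 5 of 9 genes (Slc2a1, Pgk1, Hk2, Aldoa and Ldha), where 18.5% of 27025 genes in the table hold it, and at 6 of 15 start sites, where 16.6% of all start sites do. The windows of Slc2a1, Pgk1 and both starts of Hk1 are shown 5′ to 3′ up to the base before the start, with each match in capitals.
Slc2a1, chr4:119108495-119108744, + strand: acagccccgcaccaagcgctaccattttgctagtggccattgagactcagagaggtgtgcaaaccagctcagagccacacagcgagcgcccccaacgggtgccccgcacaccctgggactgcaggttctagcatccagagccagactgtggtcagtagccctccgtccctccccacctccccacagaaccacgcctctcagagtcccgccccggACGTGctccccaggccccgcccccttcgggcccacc
Pgk1, chrX:106186850-106187099, + strand: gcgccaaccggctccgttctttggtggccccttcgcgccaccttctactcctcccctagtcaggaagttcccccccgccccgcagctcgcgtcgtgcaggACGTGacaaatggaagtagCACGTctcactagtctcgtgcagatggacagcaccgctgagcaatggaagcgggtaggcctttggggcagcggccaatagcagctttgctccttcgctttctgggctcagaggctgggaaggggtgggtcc
Hk1 upstream start, chr10:62379909-62380158, - strand: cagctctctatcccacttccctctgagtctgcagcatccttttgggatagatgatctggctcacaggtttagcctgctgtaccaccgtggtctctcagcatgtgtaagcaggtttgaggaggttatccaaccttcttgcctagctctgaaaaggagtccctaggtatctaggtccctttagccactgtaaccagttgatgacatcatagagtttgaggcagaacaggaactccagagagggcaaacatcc
Hk1 downstream start, chr10:62340422-62340671, - strand: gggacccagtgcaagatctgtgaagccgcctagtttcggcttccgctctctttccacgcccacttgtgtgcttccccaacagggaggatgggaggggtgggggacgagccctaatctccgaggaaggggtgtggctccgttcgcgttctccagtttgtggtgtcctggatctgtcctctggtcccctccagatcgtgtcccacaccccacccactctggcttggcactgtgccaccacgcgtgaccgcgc
Slc2a1 held 1 match, 36 bases before the start, and Pgk1 held 2, at 150 and 131 bases. Neither window of Hk1 held ACGTG on either strand. The window of the first Ldha start held 2 CACGTG sites, and that of the other Ldha start held none. Hk2, lower at D6 in all 11 clones of both days, held 2 matches, and Gpi1, which rose in WT, held none. Aldoa and Ldha held matches, and in WT neither passed. Whether matches go with the direction of change was not tested. A match is only a description of these letters, and no binding was measured.

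In the knockouts Hk1, Pgk1 and the transporters again made up most of the calls. Of 10 genes, Tet1-/- had 4 that rose and 2 that fell (32% and 31.3% of all genes tested), DKO 3 and 1 (27.6% and 28%), TKO 2 and 1 (25.2% and 25.2%) and Tet2-/- 0 and 2 (20.4% and 19.6%). The median change of the 10 genes was 0.08 in Tet1-/-, 0.21 in DKO, 0.08 in TKO and 0.06 in Tet2-/-, where the median of all genes was between -0.01 and 0.01. Without overlap between days, 4 genes lay higher at D6 and 3 lower in Tet1-/- (34% and 34.3% of all genes). DKO had 6 and 3 (41.7% and 42.7%), TKO 3 and 2 (33% and 32.1%) and Tet2-/- 3 and 4 (39.9% and 40.8%). Lack of overlap between days alone thus does not set a gene apart. Scaled by library totals in place of TMM, the median of all genes itself shifted to 0.14 to 0.21 between days, and over the 40 knockout tests 14 rose and 4 fell in place of 9 and 6.

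Hk1 fell in all 5 genotypes. It was at 141, 127 and 120 CPM in Tet1-/- at D0 and 60.5, 50 and 51.8 CPM at D6 (-1.26 ± 0.26, adjusted p = 0.000397). In Tet2-/- it was at 266 and 234 CPM at D0 and 86.5 and 92.1 CPM at D6 (-1.48 ± 0.32, adjusted p = 0.00129). In DKO it was at 112 and 118 CPM and then 47.4 and 67.8 CPM (-1.0 ± 0.32, adjusted p = 0.0126). D6 was below D0 in each of these genotypes without overlap. The DKO call was lost without D0 clone DKO_5.12 (adjusted p = 0.0561) or D6 clone DKO_5.11 (0.122). TKO had 223 and 103 CPM at D0 and 63.3 and 102 CPM at D6 (clones TKO_8.4 and TKO_8.12), so that clone TKO_8.4 dropped to 0.283 times its level and clone TKO_8.12 stayed at 0.997 times. The TKO change of -0.98 ± 0.32 (adjusted p = 0.0157) rested on clone TKO_8.4: it was -0.31 (adjusted p = 0.435) without that clone at D0, -0.67 (0.157) without it at D6, and -0.92 (0.0584) with clone as a block, while without TKO_8.12 it was -1.44 (0.00143) at D0 and -1.34 (0.0113) at D6.

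Hk2 passed only in Tet1-/-, where 171, 166 and 152 CPM at D0 became 110, 101 and 94.5 CPM at D6 (-0.68 ± 0.24, adjusted p = 0.0203). It did not pass there without D0 clone Tet1_KO_2.1 (0.0533), D6 clone Tet1_KO_2.2 (0.0639) or D6 clone Tet1_KO_2.4 (0.0582), nor over the clones of both days without the block (0.0862). In Tet2-/- it was at 283 and 244 CPM at D0 and 156 and 167 CPM at D6, in DKO at 151 and 148 CPM and then 110 and 111 CPM, without overlap in either. Clone TKO_8.12 was high at both days (267 and 211 CPM) and clone TKO_8.4 low (113 and 92.6 CPM). With clone as a block, which removes such standing differences between clones, Hk2 passed in Tet2-/- (-0.71, adjusted p = 0.000339), DKO (-0.44, 0.00401) and TKO (-0.31, 0.0258) as well. In TKO the unblocked change of -0.33 (adjusted p = 0.369) depended on the library left out: it was -0.82 (0.0146) without TKO_8.4 at D0 and -1.02 (0.0117) without TKO_8.12 at D6, but 0.42 (0.223) without TKO_8.12 at D0 and 0.15 (0.694) without TKO_8.4 at D6, so its direction turned.

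Per length, the 2 hexokinases were near balance at D0 in the median, and Hk2 stood above Hk1 in every library of D6. The ratio of Hk2 to Hk1 was 0.391 to 2.02 at D0 with a median of 0.971, and 1.14 to 1.9 at D6 with a median of 1.43. The outer values of D0 were the TKO pair (0.391 in clone TKO_8.4 and 2.02 in clone TKO_8.12), followed by WT clone O4.2 (1.86). In TKO_8.12 and O4.2 the ratio was lower at D6 (1.6 and 1.44), whereas it was higher in the other clones of both days. In the Tet2-/- pair it went from 0.824 and 0.811 at D0 to 1.39 and 1.4 at D6.

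**Figure D2:**
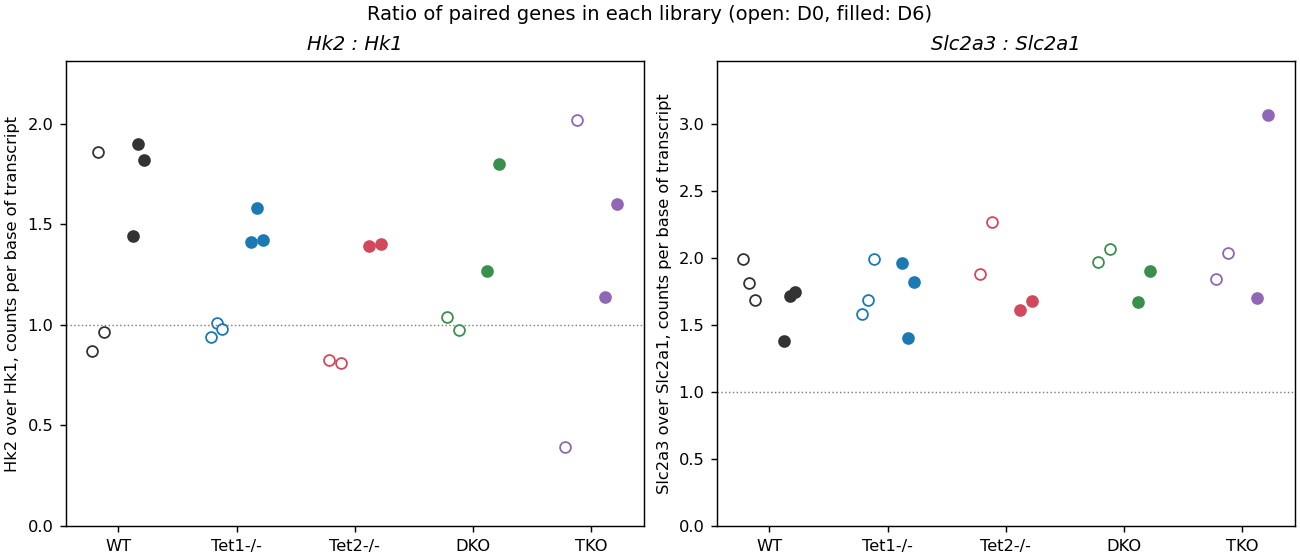
Ratio of Hk2 to Hk1 (left) and of Slc2a3 to Slc2a1 (right) in each library, as counts per base of transcript (vertical axes, from 0), by genotype, with open circles for D0, filled circles for D6 and a dotted line at 1. The D6 libraries all lie above 1 for Hk2 to Hk1, with 1.14 the lowest, while all 24 libraries lie above 1 for Slc2a3 to Slc2a1.

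Of 4 knockouts Slc2a1 rose in 2 (Tet1-/- and DKO) and Slc2a3 in 3 (these and TKO), and neither passed in Tet2-/-. Slc2a1 was at 512, 439 and 321 CPM in Tet1-/- at D0 and 737, 840 and 675 CPM at D6 (0.82 ± 0.17, adjusted p = 0.000332). In DKO it was at 347 and 333 CPM at D0 and 752 and 982 CPM at D6 (1.35 ± 0.21, adjusted p = 3.02e-05), the lowest D0 values among the genotypes other than clone Tet1_KO_2.4. In both genotypes the days were fully apart. In Tet2-/- it was at 878 and 609 CPM at D0 and 1005 and 998 CPM at D6, which is 1.15 times in clone Tet2_KO_3.10 and 1.64 times in clone Tet2_KO_3.11 (0.43 ± 0.21, adjusted p = 0.103), and without clone Tet2_KO_3.10 at D0 this became 0.74 and passed (0.0289), and without clone Tet2_KO_3.11 at D0 it was 0.19 (0.601). TKO went from 634 and 486 CPM to 719 and 839 CPM (0.48 ± 0.21, adjusted p = 0.0603), and with clone as a block this passed (0.48, adjusted p = 0.0376), as it did without TKO_8.4 at D0 (0.68, 0.0319), while without TKO_8.12 at D0 it was 0.29 (0.352). D6 lay above D0 without overlap in Tet2-/- and TKO too, and Slc2a1 was higher at D6 in 11 of 11 clones.

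Slc2a3 was at 1224, 1128 and 971 CPM in Tet1-/- at D0 and 2190, 1782 and 1865 CPM at D6 (0.81 ± 0.18, adjusted p = 0.000844). In DKO it was at 1038 and 1049 CPM and then 2167 and 2487 CPM (1.16 ± 0.23, adjusted p = 0.000317). Both rises showed no overlap between days. In Tet2-/- the level was 2508 and 2100 CPM at D0 and 2466 and 2543 CPM at D6 (0.12 ± 0.22, adjusted p = 0.696), and the days overlapped. In TKO it was at 1771 and 1506 CPM at D0 and 1853 and 3916 CPM at D6, so that clone TKO_8.12 rose 2.6-fold and clone TKO_8.4 1.05-fold. The TKO change of 0.82 ± 0.23 (adjusted p = 0.00568) rested on clone TKO_8.12, with 0.20 (adjusted p = 0.398) without it at D6 0.70 (0.0552) without it at D0 and 1.25 (1.81e-05) without TKO_8.4 at D6.

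Pgk1 was higher at D6 in 11 of 11 clones, by 0.34 to 1.61 on the log2 scale. In Tet1-/- it was at 184, 169 and 135 CPM at D0 and 355, 475 and 296 CPM at D6 (1.21 ± 0.24, adjusted p = 0.000273). In DKO it went from 158 and 150 CPM to 287 and 421 CPM (1.21 ± 0.30, adjusted p = 0.0021). The days did not overlap in any genotype. In TKO it was at 318 and 141 CPM at D0 and 410 and 430 CPM at D6 (0.87 ± 0.29, adjusted p = 0.0187), a call lost without clone TKO_8.12 at D0 (0.40, adjusted p = 0.266) or at D6 (0.86, 0.0607), and 1.58 (0.000369) without TKO_8.4 at D0. In Tet2-/- it was at 356 and 223 CPM and then 450 and 510 CPM (0.73 ± 0.29, adjusted p = 0.0536), which passed with clone as a block (0.77, 0.0334) and without clone Tet2_KO_3.10 at D0 (1.13, 0.0243), but was 0.43 (0.392) without clone Tet2_KO_3.11 at D0.

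Ldha passed in Tet1-/- alone, from 1700, 1624 and 1326 CPM at D0 to 2052, 2919 and 1813 CPM at D6 (0.55 ± 0.16, adjusted p = 0.00583). The highest value came from clone Tet1_KO_2.2, which was sequenced at D6 only, and over the clones of both days Ldha did not pass (0.35, adjusted p = 0.0811), nor with clone as a block (0.36, 0.0534). Gapdh fell in Tet2-/- from 1676 and 1663 CPM to 1213 and 1150 CPM (-0.50 ± 0.19, adjusted p = 0.038), without overlap. That call was lost with clone as a block (0.0749) and without any 1 of the 4 Tet2-/- libraries (adjusted p 0.112 to 0.149). Gapdh lay lower at D6 in 10 of 11 clones. Gpi1, Aldoa and Eno1 did not pass in any knockout with all libraries and TMM. With library totals in place of TMM, Aldoa (0.67, edgeR adjusted p = 0.0407) and Ldha (0.52, 0.0336) passed in DKO. The TKO values turned with the D0 library left out: Aldoa was 0.38 with both, 1.02 (adjusted p = 0.0031) without TKO_8.4 and -0.06 (0.852) without TKO_8.12, and Eno1 was 0.05, 0.38 (0.0489) and -0.22 (0.256). Gapdh in TKO was -0.41 (adjusted p = 0.0695) with all libraries, -0.69 (0.0132) without TKO_8.12 at D6 and -0.17 (0.521) without TKO_8.4 at D6. Ldha in TKO was 0.11 with all libraries, 0.40 (0.146) without TKO_8.4 at D0 and -0.13 (0.651) without TKO_8.12 at D0. Over clones Gpi1 was higher at D6 in 6 of 11, Aldoa in 9 and Eno1 in 5.

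**Figure D3:**
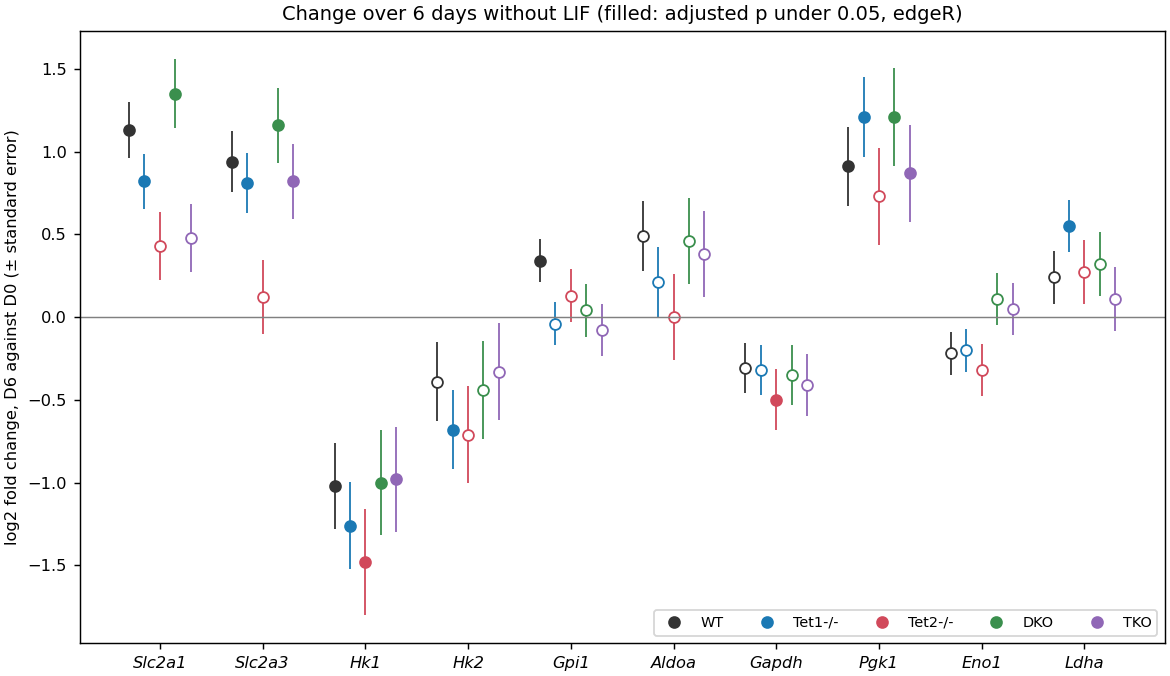
Change of each of the 10 genes from D0 to D6 in each genotype, as log2 fold change with its standard error (vertical axis), with filled circles where the adjusted p was under 0.05 (edgeR). Hk1 lies at -0.98 or lower in all 5 genotypes, and in Tet2-/- Slc2a1 lies at 0.43 and Slc2a3 at 0.12, neither filled.

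Whether a knockout changed otherwise than WT was tested as the difference of changes. None of the 10 genes passed in any knockout (edgeR), where of 15639 genes 0% passed for Tet1-/-, 16% for Tet2-/-, 0% for DKO and 5.97% for TKO. At an unadjusted p under 0.05 there were 2 genes for Tet2-/- (32.7% of all genes), 1 for TKO (23.6%), 1 for Tet1-/- (7.67%) and 0 for DKO (8.02%), so the 2 of 10 for Tet2-/- lay under the share of all genes. The 2 in Tet2-/- were the transporters: the change of Slc2a3 was 0.82 ± 0.29 (log2) smaller than in WT (-0.82, adjusted p = 0.0591) and that of Slc2a1 was lower by 0.70 ± 0.27 (-0.70, adjusted p = 0.0738). Both passed with DESeq2 (Slc2a3 adjusted p = 0.033, Slc2a1 0.0492), Slc2a3 also passed without either TKO library of D6 (0.00864 and 0.00927), and Slc2a1 without clone Tet2_KO_3.11 at D0 (0.0474) or with the replicate number of the labels as a block (0.0409). Without clone Tet2_KO_3.10 at D0 the Slc2a1 difference was -0.40 (adjusted p = 0.402), and over 32 other settings it ranged from -0.94 to -0.40, with 3 that passed. That of Slc2a3 ranged from -0.94 to -0.67, also with 3 that passed. In the Tet2-/- comparison 9 of 10 genes had a difference below 0 (median -0.27, against 0.01 over all genes tested), compared with 7 in Tet1-/-, 4 in DKO and 7 in TKO. These comparisons share the WT libraries. The Tet2-/- libraries of D6 also had the highest sum of pluripotency markers (3782 to 4077 CPM, against 1409 to 3210 CPM in WT) and the lowest sum of differentiation markers (526 to 609 CPM, against 1132 to 1764 CPM in WT), and the part of these in the transporter values was not tested.

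In undifferentiated cells the question was whether the genotypes already differed. Against WT at D0, Tet2-/- had 2 of 10 genes that passed, both higher, where 5.02% of 14456 genes passed higher, and all 10 genes had a fold change above 0 (median 0.44, against -0.01 over all genes tested). In DKO all 10 lay below 0 (median -0.39) and none passed, where 0.0484% of all genes passed in either direction. Tet1-/- (0.0138%) and TKO (8.61%) had none that passed either. At an unadjusted p under 0.05 there were 5 genes in Tet2-/- (29.2% of all genes), 7 in DKO (14.4%), 3 in Tet1-/- (12.6%) and 0 in TKO (26.4%). DESeq2 passed 4 higher and 3 lower over the 40 tests.

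Gapdh was at 1676 and 1663 CPM in Tet2-/- and at 1232, 1031 and 1031 CPM in WT at D0 (0.59 ± 0.10, adjusted p = 0.0084). Gpi1 was at 700 and 563 CPM in Tet2-/- and at 494, 449 and 439 CPM in WT (0.44 ± 0.11, adjusted p = 0.0271). Both Tet2-/- clones were above every WT clone for both genes. Gapdh did not pass without clone Tet2_KO_3.10 (0.0799) or Tet2_KO_3.11 (0.114), and Gpi1 did not pass without clone Tet2_KO_3.10 (0.276) or Tet2_KO_3.11 (0.0918) or on leaving out O4.2 (0.0912) or O4.13 (0.0954) from WT. Hk1 had the largest difference, with 266 and 234 CPM against 165, 74.8 and 143 CPM in WT (0.95 ± 0.30), and it did not pass (adjusted p = 0.0642). Slc2a3 was at 2508 and 2100 CPM against 1734, 1823 and 1359 CPM (0.47 ± 0.14, adjusted p = 0.0529). Tet2-/- lay above WT without overlap for 7 of 10 genes, where 30.8% of all genes did so. DKO lay below WT without overlap for 9 of 10 genes (19.1% of all genes) and Tet1-/- for 6 of 10 (10.1%).

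The spread shared by all D0 libraries included the TKO pair, and leaving out either of its libraries changed these counts. Without clone TKO_8.4 or without clone TKO_8.12, 7 of 10 genes passed higher in Tet2-/- (Hk1, Hk2, Gpi1, Aldoa, Gapdh, Eno1 and Slc2a3), where 14.3% of all genes did so in each case. In DKO 5 passed lower (Aldoa, Pgk1, Eno1, Slc2a1 and Slc2a3), where 3.17% and 3.18% of all genes did, and in Tet1-/- 2 passed lower (Pgk1 and Slc2a3), where 1.86% and 1.91% did. TKO itself depended on which clone was kept. With clone TKO_8.12 alone, Hk2 was higher (14.1% of all genes) and Aldoa, Pgk1 and Eno1 lower (13.4%), and with clone TKO_8.4 alone Hk1 was higher (10% of all genes) and Hk2 lower (7.65%). For Hk2 the direction turned, with 0.56 (adjusted p = 0.00116) for clone TKO_8.12 and -0.68 (0.00103) for clone TKO_8.4. A lone clone is assumed in these fits to vary as the other genotypes do.

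**Figure D4:**
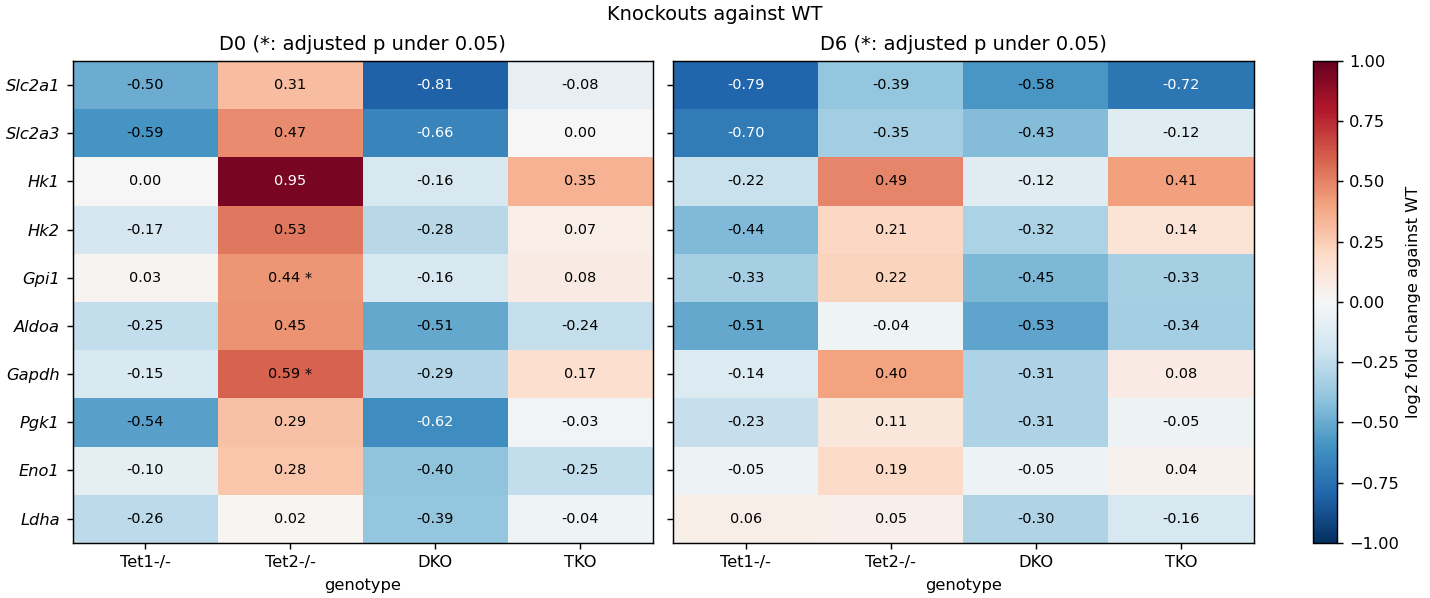
Log2 fold change of each of the 10 genes in each knockout against WT at D0 (left) and D6 (right), printed in the cell and shown by color from -1 (blue) to 1 (red), with an asterisk where the adjusted p was under 0.05 (edgeR). At D0 the Tet2-/- column is above 0 and the DKO column below 0 for all 10 genes. At D6 the Slc2a1, Slc2a3 and Aldoa rows are below 0 in all knockouts, and the DKO column is below 0 for all 10 genes.

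Tet2-/- was also set against each other knockout, 60 tests over both days, of which 16 passed, all with Tet2-/- higher. At D0, 6 of 10 genes were higher than in Tet1-/- (10.5% of all genes) and 7 than in DKO (10.1%), while 1, Gapdh, was higher than in TKO (5.13%). Slc2a3 was higher by 1.06 ± 0.14 than in Tet1-/- (adjusted p = 0.00138) and by 1.14 ± 0.16 than in DKO (0.00236). Slc2a1 was higher by 0.81 ± 0.20 than in Tet1-/- (0.015) and by 1.12 ± 0.22 than in DKO (0.00857). Both Tet2-/- clones exceeded every Tet1-/- and DKO clone for both transporters. Gapdh was higher by 0.74 ± 0.10, 0.87 ± 0.11 and 0.41 ± 0.11 than in Tet1-/-, DKO and TKO (adjusted p 0.00138, 0.00151 and 0.0321). Hk1 was higher by 0.95 ± 0.30 and 1.11 ± 0.34 than in Tet1-/- and DKO (0.045 and 0.0401) and Gpi1 by 0.40 ± 0.11 and 0.60 ± 0.12 (0.0212 and 0.00857). The other calls were Pgk1 against Tet1-/- (0.84 ± 0.27, adjusted p = 0.0471) and Aldoa (0.96 ± 0.26, 0.0257) and Eno1 (0.68 ± 0.17, 0.0204) against DKO. Gapdh and Slc2a3 against Tet1-/- and DKO passed in all 18 other settings, whereas Pgk1 against Tet1-/- was lost in 12 of 18 and Hk1 in 9 against Tet1-/- and 8 against DKO. Against DKO, Aldoa and Eno1 were each lost in 4 (without any 1 of the Tet2-/- and DKO libraries), Slc2a1 in 3 and Gpi1 in 2. Against Tet1-/-, Gpi1 was lost in 3 and Slc2a1 in 2, with 0.23 (adjusted p = 0.282) and 0.52 (0.202) without Tet2_KO_3.10. Gapdh against TKO was lost in 6 of 18, among them without either Tet2-/- library (adjusted p = 0.16 and 0.141). Without TKO_8.12 at D0, Gapdh no longer passed against TKO and Hk2 was the 1 gene that did, and without TKO_8.4 there were 7. Over both days the count fell to 6 without clone Tet2_KO_3.10 at D0 and to 10 without clone Tet2_KO_3.11, and rose to 28 and 22 without clones TKO_8.4 and TKO_8.12 at D0. Clone Tet2_KO_3.10 was the highest of the 12 libraries of D0 for all 10 genes and for the ribosomal transcript Rn45s (11778 CPM, against 3852 to 8175 CPM in the others), and the part of that in these values was not tested.

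At D6 none of the 10 genes passed against WT in any knockout (edgeR), where 0% of 15435 genes passed for Tet1-/-, 28.5% for Tet2-/-, 0% for DKO and 0% for TKO. At an unadjusted p under 0.05 there were 4 genes for Tet1-/- (12.6% of all genes), 2 for Tet2-/- (42.9%), 3 for DKO (14.6%) and 1 for TKO (23.5%). DESeq2 passed 3, all Slc2a1 lower (Tet1-/- adjusted p = 0.000464, DKO 0.0376, TKO 0.00152). Slc2a1 was at 1269, 1470 and 1143 CPM in WT and at 675 to 840 CPM in Tet1-/-, 998 and 1005 CPM in Tet2-/-, 752 and 982 CPM in DKO and 719 and 839 CPM in TKO. Every knockout library was below every WT library, while the edgeR fold changes of -0.79 ± 0.14, -0.39 ± 0.15, -0.58 ± 0.15 and -0.72 ± 0.15 had adjusted p of 0.318, 0.075, 0.202 and 0.0643. Tet2-/- lay above the WT range for Hk1, Hk2, Gapdh and Ldha and below it for both transporters, 4 and 2 of 10 genes, where 31.4% and 31.6% of all genes did so. Against the other knockouts, 1 gene was higher in Tet2-/- than in Tet1-/- (Hk1, 0.71 ± 0.20, adjusted p = 0.0469, where 3.78% of all genes were), 1 than in DKO (Gpi1, 0.68 ± 0.19, 0.0332, 6.24%) and 0 than in TKO (5.92%, with 1 at an unadjusted p under 0.05). The Hk1 call was lost in 9 of 18 other settings and the Gpi1 call in 5 of 18, among them the omission of either Tet2-/- library (Hk1 adjusted p = 0.186 and 0.275, Gpi1 0.118 and 0.176).

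Across libraries most of the 10 genes went up and down together. As a description over 12 libraries of 5 genotypes, which share genotype and clone, Pearson's r of a gene with the mean of the other 9 at D0 was 0.708 to 0.915 for 9 genes and 0.382 for Hk2. At D6 it was 0.936 for Gpi1 and 0.904 for Aldoa and lowest for Ldha (0.407) and Slc2a3 (0.523). By their mean z score at D0, the DKO clones were lowest (-0.98 and -0.96) and the Tet2-/- clones highest (0.88 and 1.86), and the TKO clones lay at -0.51 and 0.58 on both sides of WT. At D6 WT clone O4.2 was highest (1.05), next to both Tet2-/- clones (1.02 and 0.80), and clone DKO_5.11 lowest (-1.17). The genes most like this mean among 10156 others at D0 were Src (r = 0.976), Pafah1b3 (0.966), Cabp1 (0.966), Clstn1 (0.965) and Ndufv3 (0.959). At D6, among 10655, they were Idh2 (0.979), Mgarp (0.968), Nadk2 (0.955), Pycr1 (0.953) and Hadh (0.949). No gene was among the first 5 at both days.

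The rest of the pathway held calls in both directions after LIF withdrawal, to be read against the shares of all genes that rose and fell, 33.5% and 32.8% in WT and the lower shares given above for each knockout. In WT, 6 of 16 other glycolysis enzymes rose and 5 fell, 6 of 18 genes of lactate and pyruvate handling rose and 8 fell, and 3 of 7 other glucose transporters rose and 2 fell. Of the regulators of glycolysis 5 of 10 rose and 1 fell, and of the genes of gluconeogenesis and glycogen 5 of 9 rose and 2 fell. All 5 genes of the pentose phosphate pathway that passed, of 8, fell (median -0.37), and 0 rose in any genotype, with 5 lower for Tet1-/-, 4 for Tet2-/- and TKO and 3 for DKO, where 31.3%, 19.6%, 25.2% and 28% of all genes fell in Tet1-/-, Tet2-/-, TKO and DKO. Of 15 hypoxia response genes 11 rose and 2 fell (median 1.06). In the knockouts 9 rose and 2 fell in Tet1-/- and in DKO, and 7 rose and 0 fell in Tet2-/- and in TKO. The shares of all genes that rose were 32% in Tet1-/-, 27.6% in DKO, 20.4% in Tet2-/- and 25.2% in TKO.

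The named pathway genes were those with the largest changes between days. In WT, Slc2a12 went from 0.247 ± 0.22 to 4.43 ± 0.28 CPM (SD, n = 3) and Slc2a10 from 0.0425 to 0.89 CPM (log2 change 4.24), and Adm, adrenomedullin, from 0.398 to 2.97 CPM (2.88). Fbp2, a fructose bisphosphatase of gluconeogenesis, fell from 9.93 ± 2.45 to 0.828 ± 0.81 CPM (-3.53), Hk3 from 0.729 to 0.0985 CPM (-2.80) and Slc2a7 from 0.6 to 0.0864 CPM (-2.69). The lactate exporter Slc16a3 rose in Tet1-/- from 42 ± 20.9 to 312 ± 93.4 CPM (2.89, adjusted p = 6.65e-06). Mpc1, a subunit of the mitochondrial pyruvate carrier, fell in Tet1-/- from 9.26 to 1.91 CPM (-2.27, adjusted p = 1.27e-07) and also passed as lower in DKO (-2.60) and TKO (-1.95). Genes were named by rank within each genotype, so a gene not named for WT may have changed there too. Mpc1 was at 1.69 ± 0.25 CPM in WT at D6. For Tet1-/- and DKO 0% of all genes passed for a difference of change from WT. In Tet2-/-, Adm (3.88), Slc2a12 (2.73) and Bnip3 (2.01) rose, and Fbp2 (-4.52), Slc2a7 (-2.70) and Ldhd (-2.06) fell.

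Some other pathway genes passed for a difference between Tet2-/- and WT. Txnip, which lowers glucose uptake by removing GLUT1 from the membrane, was at 127 ± 18 CPM in WT and 29.6 ± 7.38 CPM in Tet2-/- at D0 (-2.12 ± 0.21, adjusted p = 0.000787) and at 371 ± 69.5 and 12.9 ± 1.34 CPM at D6 (-4.86 ± 0.85, adjusted p = 0.00556). Its change between days was also lower than in WT (-2.74 ± 0.78, adjusted p = 0.0251), and it was lower in Tet2-/- than in Tet1-/-, DKO and TKO at both days. Ldhb, the other main lactate dehydrogenase subunit, was at 402 ± 69.1 CPM in WT and 820 ± 27.5 CPM in Tet2-/- at D0 (1.01 ± 0.20, adjusted p = 0.0149), and Pck2, a mitochondrial enzyme of gluconeogenesis, at 37.3 and 102 CPM (1.43 ± 0.41, adjusted p = 0.0455). Ldhc, the testis subunit, had no count in either Tet2-/- library, which allows up to 0.128 and 0.0876 CPM (3 counts per library), against 1.29 CPM in WT. At D6, Pdk1, a kinase that switches off pyruvate dehydrogenase, was at 248 ± 82.1 CPM in WT and 610 ± 0.96 CPM in Tet2-/- (1.28 ± 0.27, adjusted p = 0.0098). Over the lists at D0, 3 of 8 pentose phosphate genes and 0 of 16 other glycolysis enzymes were higher in Tet2-/- than in WT, with 0 lower in both, where 5.02% of all genes were higher.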

How the data were processed

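Polyadenylated RNA of 13 ESC clones, 11 of them at both days (24 libraries), was sequenced and, per the labels and the study's methods, mapped to mm9 with STAR 2.5.1. The values are counts as deposited: the authors counted read pairs on 31928 RefSeq lines for each day, and the counting options and use of strand are not given in the sources used here. The first line of each of 22926 symbols was kept (4 of the 10 genes had more than 1 line). The spike-in scaling of the study was not repeated, since the tables used here hold 0 spike-in rows.

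Counts were tested in R 4.3.3 with edgeR 4.0.16 (filterByExpr with a minimum count of 10, TMM factors of 0.918 to 1.1, quasi-likelihood test), with both days in 1 fit for changes between days and 1 fit for each day for genotypes. Errors of log2 fold changes are standard errors. P-values were adjusted by Benjamini-Hochberg over all genes tested, and "passed" means an adjusted p under 0.05. "Rose", "fell", "higher than" in counts of calls and "lower than" follow this rule. The scripts were tested on simulated data. Alternatives were DESeq2 1.42.0, other scalings, no filter, each library left out and replicate blocks, and a fit over the clones of both days without the block was chosen after seeing the data. Clones sequenced at both days paired by name, and their deviations from the group means correlated at r = 0.0813 to 0.193 (11 clones). Samples were grouped by the labels. Clones come from separate cultures of 1 line, so p-values measure spread between clones. Named pathway genes were up to 3 in each direction with the largest fold among those passed. The 10 genes and the gene lists were chosen with earlier results of these data known. Lengths and places are of the longest coding transcript in GENCODE vM1 (mm9), and promoter sequences are from RefSeq (GRCm38.p6).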

Additional observations from a re-analysis of the deposited data

Results flagged for a closer look

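Eno1 moved in opposite directions in 2 knockouts: from D0 to D6 its mean change over clones was -0.31 (log2) in Tet2-/-, where both clones were lower at D6, and 0.11 in DKO, where both were higher. This difference between the genotypes was not tested, and neither change passed on its own (edgeR adjusted p 0.12 and 0.582). The 10 genes in 5 genotypes were screened for such a pattern. The screen also gave Gpi1, with a mean change of 0.33 in WT clones and -0.13 in Tet1-/- clones. That difference was tested and did not pass (-0.39, edgeR adjusted p = 0.647). Groups of 2 or 3 clones were too small for a search for outlying samples.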

How the results depend on the processing

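Among the values recomputed under an alternative, 5106 kept their side of the threshold, 195 passed only under the alternative, 98 no longer passed and 1 passed with the opposite sign. The 5106 include values that passed in neither fit and changed sign, as for Hk2 in TKO between days. Counts are over the 10 genes. Library totals in place of TMM gave 14 rises in the knockouts between days (9 with TMM) and 1 lower call against WT at D6 (0 with TMM). DESeq2 gave 2 lower differences of change in the knockouts (0 with edgeR), 4 higher and 3 lower against WT at D0 (2 and 0), 28 higher for Tet2-/- against other knockouts (16) and 3 lower against WT at D6 (0). Without the filter on low counts there were 4 higher and 3 lower against WT at D0, 25 higher for Tet2-/- against other knockouts and 1 lower against WT at D6. With clone as a replicate block 2 genes fell in WT (1 without it), and the calls it changed stand beside their genes, with no other call of a change between days altered. With the replicate number of the labels as a block, which pairs no samples by design, there was 1 lower difference of change, 3 higher and 1 lower against WT at D0 and 1 lower at D6, and Tet2-/- against other knockouts had 16 higher calls, 3 gained and 3 lost.

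Leaving out each library in turn gave 3 to 5 rises and 1 to 3 falls in WT, and 7 to 14 rises and 5 to 9 falls in the knockouts between days (9 and 6 with all libraries). Differences of change were 0 higher and 0 to 1 lower. Against WT at D0 there were 0 to 8 higher and 0 to 10 lower, against WT at D6 0 to 2 higher and 0 to 1 lower, and for Tet2-/- against other knockouts 6 to 28 higher and 0 to 1 lower. Hk2 in TKO against WT at D0 was 0.07 with both clones, 0.56 without TKO_8.4 and -0.68 without TKO_8.12. Leaving out either TKO library of D0 also let Hk2 and Pgk1 pass as changed in Tet2-/- between days. Why these values moved was not tested. Depth did not limit the 10 genes, with at least 47.4 CPM in every library, whereas several named pathway genes lay below 1 CPM.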

Other observations

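The lists of cell state moved more uniformly than the 10 glycolysis genes. Of 13 pluripotency markers 13 fell in WT between days (median -1.79, edgeR adjusted p under 0.05 for each), 13 in Tet1-/-, 12 in DKO, 11 in TKO and 7 in Tet2-/-. Of 16 differentiation markers 14 rose and 1 fell in WT, 14 and 1 in Tet1-/- and in DKO, 10 and 1 in TKO, and 9 and 0 in Tet2-/-. Of all genes tested, 33.5% rose and 32.8% fell in WT, 32% and 31.3% in Tet1-/-, 27.6% and 28% in DKO, 25.2% and 25.2% in TKO, and 20.4% and 19.6% in Tet2-/-. Of 8 fibroblast or feeder markers 6 rose and 1 fell in WT, and their summed level was 21.8 to 68 CPM at D0 and 24.1 to 339 CPM at D6, with 1 of the 8 at 0 counts in all 12 libraries of D0 and 0 at D6. Tet2-/-, with 2 clones a day, had the fewest calls in the pluripotency and differentiation lists and also over all genes, and whether its marker counts differ from those of WT was not tested.

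Between Tet2-/- and WT at D6, 12 genes of the pathway lists were higher and 8 lower, where 12.9% and 15.6% of all genes were. Higher were 4 of 16 other glycolysis enzymes, 3 of 18 genes of lactate and pyruvate handling and 2 of 10 regulators. Also higher were 2 of 8 pentose phosphate genes and 1 of 15 hypoxia response genes. Lower were 2 each of 18 genes of lactate and pyruvate handling, 10 regulators, 9 genes of gluconeogenesis and glycogen and 7 other transporters. Besides Txnip, those with the lowest fold changes were the glucose transporters Slc2a12, at 4.43 ± 0.28 CPM in WT and 0.859 ± 0.13 CPM in Tet2-/- (-2.37, edgeR adjusted p = 0.0151), and Slc2a10 (-1.77, adjusted p = 0.0427). Among the higher were Pklr, the pyruvate kinase of liver and red cells, which was higher by 1.56 (log2), and Mpc1, at 1.69 ± 0.25 CPM in WT and 4.04 ± 0.75 CPM in Tet2-/- (1.24 ± 0.32, edgeR adjusted p = 0.0182). Pklr was at 0.395 CPM in WT and 1.21 CPM in Tet2-/-. The change between days was lower in Tet2-/- than in WT for Pck2 (-1.74 ± 0.52, edgeR adjusted p = 0.0312) and for G6pc3, a glucose 6-phosphatase (-1.92 ± 0.42, adjusted p = 0.00772).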
